A study of Mus musculus with 9 samples.

Results

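Macrophages are among the first blood cells to settle in the embryo, and 10 genes that mark them were followed here in the thymus of the mouse fetus: Csf1r, Adgre1, C1qa, C1qb, C1qc, Mrc1, Lyz2, Cx3cr1, Cd68 and Pf4. A gene was taken as the transcript cluster (the array's unit for 1 gene, summarised over its probes) that carries its symbol. Of these 10 genes, 9 had a named cluster, 1 each, out of 19505 gene symbols on the array. No cluster named Cd68 was analysed here.

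Tissue macrophages of the fetus derive largely from yolk sac and fetal liver progenitors and live on signals through the receptor encoded by Csf1r. In the developing thymus they take up dying thymocytes, and their typical products are the chains of complement C1q, scavenger and lectin receptors, and lysozyme. Several of the genes are shared with other cells: Lyz2 with granulocytes and monocytes, and Pf4 with megakaryocytes and platelets.

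Total RNA came from thymic lobes of embryos at day e13.5, all labelled C57BL/6, and was hybridised to Clariom S mouse arrays, 1 sample per array. Wild-type lobes (labelled wt), lobes carrying Foxn1933/1089 (the series title speaks of compound heterozygotes of Foxn1, a transcription factor of thymic epithelium) and lobes carrying Tbx1neo2/neo2 (homozygous for the neo2 allele of Tbx1, a transcription factor of the embryonic pharynx) had 3 arrays each. Neither mutation is described in the labels as limited to 1 cell type, and no treatment is named. Replicates are not said to come from separate embryos or litters, so the p-values measure the spread between these samples only. All values are deposited log2 values in the order of replicates 1, 2 and 3.

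The medians of the arrays lay between 5.09 and 5.20, and those of the 5222 features named as negative controls between 4.27 and 4.94. What these controls target was not examined, and their 95th percentile ran from 8.03 to 9.70, so their median is only a rough floor. Foxn1 read 7.78, 10.35 and 10.01 in wild type, 9.02, 8.73 and 9.67 in Foxn1933/1089 and 8.88, 10.04 and 9.70 in Tbx1neo2/neo2. Tbx1 read 5.85, 4.25 and 4.54, then 4.07, 4.83 and 4.61, and 5.38, 4.80 and 5.30. Neither targeted gene separated its mutant from wild type, so these levels do not check the labels. Wild-type replicate 1 and Foxn1933/1089 replicate 2 stood apart from the other 7 arrays. The mean of 8 thymic epithelial genes was 7.10 and 7.62 on them, against 10.45 to 10.71 elsewhere, and that of 7 T lineage genes was 3.93 and 4.18, against 6.46 to 8.59. Wild-type replicate 1 also had a mean of 12.22 over 5 neuron genes (5.58 to 6.12 on the others). Differences of the macrophage genes from wild type and counts over the gene lists are given with all 9 arrays and, where they turned or changed by over 1.5 times, also without these 2 arrays (over 7 arrays).

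No macrophage gene was called different between any of the genotypes. In Foxn1933/1089 against wild type, limma with Benjamini-Hochberg adjustment over all 22206 clusters called 0 of 9 genes, and called 0% of all clusters. At an unadjusted p under 0.05, 2 of 9 passed (C1qa and C1qc), against 4.04% of all clusters. C1qc was the 1 gene of 9 whose Foxn1933/1089 arrays all lay above the wild-type arrays, as did those of 4.86% of all clusters. None of the 9 lay wholly below, against 3.43% of all clusters.

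In Tbx1neo2/neo2 against wild type the count was likewise 0 of 9 by limma, with 0.0135% of all clusters called. C1qc was the 1 gene of 9 with an unadjusted p under 0.05 (3.79% of all clusters). It was also the 1 gene without overlap on the higher side (5.18% of all clusters), and 0 of 9 lay wholly below (4.27%). Between the mutants 0 of 9 genes were called, with 0% of clusters called in all, and 0 of 9 had an unadjusted p under 0.05, against 2.98%. Both comparisons with wild type use the same 3 wild-type arrays. The titles of these arrays begin with Foxn, as do those of the other mutant, while all Tbx1neo2/neo2 titles begin with Tbx. What these prefixes stand for is not stated. Without a wild-type title that begins with Tbx, the part of the prefix in the differences of Tbx1neo2/neo2 from the other genotypes could not be tested. In whole lobes, a different number of macrophages and a different amount of RNA per macrophage cannot be told apart.

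**Figure D1:**
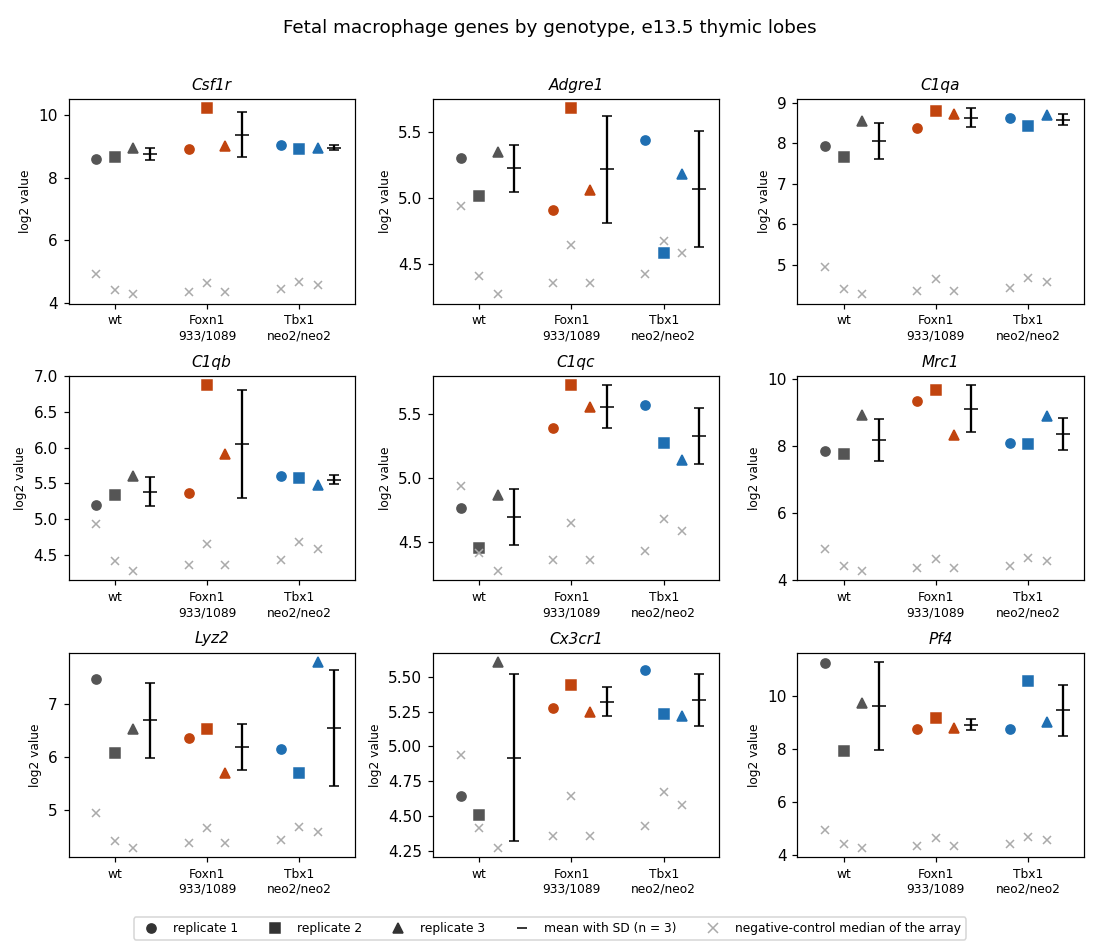
Each panel shows the log2 value of 1 gene (vertical axis) on the 3 arrays of each genotype, with bars for the mean and SD and grey crosses for the negative-control median of each array; the vertical scales differ. C1qc sits between 4.45 and 4.87 on the wild-type arrays and between 5.14 and 5.72 on the 6 mutant arrays, while Pf4 spans 7.94 to 11.23 within wild type alone.

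Csf1r encodes the receptor for the growth factors CSF1 and IL-34, on which most macrophages depend. It read 8.59, 8.67 and 8.95 in wild type, 8.91, 10.20 and 8.99 in Foxn1933/1089 and 9.04, 8.89 and 8.93 in Tbx1neo2/neo2. On 8 of 9 arrays the gene stayed between 8.59 and 9.04, and 1 array, Foxn1933/1089 replicate 2, stood higher. The Foxn1933/1089 mean was 9.37 ± 0.72 (SD, n = 3) against 8.74 ± 0.19 in wild type and 8.95 ± 0.07 in Tbx1neo2/neo2. Both differences from wild type had intervals that include 0: 0.63 log2 units ± 0.33 (SE; 95% interval -0.10 to 1.37) and 0.22 ± 0.33 (-0.52 to 0.95). Without Foxn1933/1089 replicate 2 and wild-type replicate 1 the first difference was 0.15 ± 0.22.

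The ligand gene Csf1 read 8.33, 12.63 and 8.08 in wild type, 8.74, 9.60 and 9.83 in Foxn1933/1089 and 9.02, 8.72 and 8.80 in Tbx1neo2/neo2. Wild-type replicate 2 was the highest array by a wide margin, and Csf1r was not high there. Il34, the other ligand, stayed between 4.03 and 5.15 over the 9 arrays, close to the negative controls. Of 11 measured growth factor and chemokine genes of macrophages, 5 were higher in Foxn1933/1089 and 4 in Tbx1neo2/neo2 than in wild type, with 0 called in either. Over 7 arrays these counts were 2 and 4.

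The 3 chains of C1q, the recognition protein of the classical complement pathway that also marks dying cells for uptake, are made mainly by macrophages. C1qa read 7.94, 7.68 and 8.55 in wild type, 8.38, 8.81 and 8.72 in Foxn1933/1089 and 8.63, 8.44 and 8.69 in Tbx1neo2/neo2. C1qb read 5.20, 5.34 and 5.60, then 5.37, 6.87 and 5.91, and 5.60, 5.57 and 5.48. C1qc read 4.77, 4.45 and 4.87, then 5.39, 5.72 and 5.56, and 5.57, 5.27 and 5.14. Wild-type replicates 1 and 2 were the 2 lowest arrays for each of the 3 chains. The third wild-type array overlapped the mutants for C1qa and C1qb but not for C1qc.

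C1qc was 0.86 ± 0.21 log2 units higher in Foxn1933/1089 (95% interval 0.39 to 1.33, 1.82-fold) and 0.63 ± 0.21 higher in Tbx1neo2/neo2 (0.16 to 1.10, 1.55-fold). The unadjusted p was 0.0025 and 0.0142, and limma's adjusted p was 1.00 for both, so neither difference passed. Without the 2 arrays that stood apart the differences were 0.81 ± 0.25 and 0.67 ± 0.23. The wild-type arrays were near the negative controls for this gene, with replicate 1 below and replicate 2 just above its own negative-control median (4.94 and 4.41). The mutant means were 5.56 ± 0.17 and 5.33 ± 0.22 (SD, n = 3), and the mutant arrays overlapped each other, with a difference of 0.23 ± 0.21.

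C1qa differed from wild type by 0.58 ± 0.26 in Foxn1933/1089 (95% interval 0.01 to 1.15) and by 0.53 ± 0.26 in Tbx1neo2/neo2 (-0.04 to 1.10). C1qb differed by 0.67 ± 0.34 (-0.09 to 1.43) and by 0.17 ± 0.34 (-0.59 to 0.93). The first of the C1qb values rests on Foxn1933/1089 replicate 2: it was 0.26 without that array. Over 7 arrays the C1qb differences were 0.17 ± 0.25 and 0.08 ± 0.23. None of these 4 differences passed adjustment (limma, adjusted p = 1.00 for each).

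The C1q genes lie side by side on mouse chromosome 4, and their start regions are shown because the chains are parts of 1 protein and read alike on several arrays. Pf4 is shown beside them as the member whose course over the 9 arrays was least like theirs. Over 7 arrays Lyz2 was slightly less like them than Pf4. Each sequence is the 250 bases before the annotated start of the gene, on the gene's own strand, from RefSeq (build GRCm38.p6). Capitals mark GAGGAA or its reverse complement, the core bound by the ETS factor PU.1 (encoded by Spi1), and where it is part of GAGGAAGT all 8 letters.
C1qb (chr4:136886201-136886450, minus strand): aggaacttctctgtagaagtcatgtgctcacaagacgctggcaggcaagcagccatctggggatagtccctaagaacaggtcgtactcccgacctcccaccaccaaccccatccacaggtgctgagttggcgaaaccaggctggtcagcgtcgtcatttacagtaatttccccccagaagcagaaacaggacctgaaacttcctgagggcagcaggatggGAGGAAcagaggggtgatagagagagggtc
C1qc (chr4:136892915-136893164, minus strand): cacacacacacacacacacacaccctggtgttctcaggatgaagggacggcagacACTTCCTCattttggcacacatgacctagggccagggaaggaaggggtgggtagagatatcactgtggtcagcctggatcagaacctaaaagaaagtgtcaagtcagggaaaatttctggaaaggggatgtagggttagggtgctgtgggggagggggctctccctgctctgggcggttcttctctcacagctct
Pf4 (chr5:90772185-90772434, plus strand): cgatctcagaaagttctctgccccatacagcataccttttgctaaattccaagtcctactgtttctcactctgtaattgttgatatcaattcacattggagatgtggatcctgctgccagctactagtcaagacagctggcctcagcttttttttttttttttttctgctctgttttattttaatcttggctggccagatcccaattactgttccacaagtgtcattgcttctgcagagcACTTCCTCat

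Start regions were at hand for 6 of the 9 measured genes (C1qb, C1qc, Mrc1, Lyz2, Cx3cr1 and Pf4). In windows of 300 bases, from 250 before to 50 after the start, GAGGAA was found on either strand in 4 of these 6, against 28.3% of all 27025 promoters. GAGGAAGT, which contains it, was found in 2 of 6 (C1qc and Pf4), against 3.28%. In C1qb the site began 30 bases before the start, in C1qc GAGGAAGT began 195 bases before it, and in Pf4 10 bases before it. TTGNNCAA, a C/EBP motif, was in 0 of 6 windows (6.47% of all) and TGCTGAC, a MAF motif, in 0 of 6 (4.58% of all). These are matches of letters in a short window.

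Spi1 itself did not peak with Csf1r and C1qb on Foxn1933/1089 replicate 2. It read 8.80, 11.44 and 11.84 in wild type, 11.81, 9.50 and 12.24 in Foxn1933/1089 and 11.06, 11.55 and 11.10 in Tbx1neo2/neo2. Both arrays poor in thymic genes were the lowest for Spi1, although Foxn1933/1089 replicate 2 was the highest for Csf1r and C1qb. Wild-type replicate 1 was the lowest array for Csf1r and C1qb too. Spi1 is also active in early lymphoid progenitors. Of 11 measured transcription factor genes of macrophages, 10 were higher in Foxn1933/1089 than in wild type (median 0.24) and 10 in Tbx1neo2/neo2 (median 0.18), with 0 called. The medians over all clusters were 0.02 and 0.01. This rested on wild-type replicate 1, the lowest array for 5 of the 11 genes: without it 6 of 11 were higher in each mutant, with medians of 0.08 and 0.01, and over 7 arrays 7 and 6 were higher. The lowest unadjusted p in the list belonged to Id3 in Foxn1933/1089, an inhibitor of basic helix-loop-helix factors (1.15 ± 0.48; replicate 2 at 11.10 and the other 8 arrays at 8.52 to 9.69). In Tbx1neo2/neo2 it belonged to Tfec, a MITF family factor (0.97 ± 0.33).

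Adgre1 encodes F4/80, the surface protein by which mouse macrophages are usually sorted. Its values were 5.31, 5.02 and 5.35 in wild type, 4.91, 5.68 and 5.06 in Foxn1933/1089 and 5.44, 4.59 and 5.18 in Tbx1neo2/neo2. The 3 genotypes overlapped, and Tbx1neo2/neo2 replicate 2 lay below its negative-control median. Differences from wild type were -0.01 ± 0.29 (95% interval -0.65 to 0.63) and -0.16 ± 0.29 (-0.80 to 0.49), and both passed through 0 when single arrays were left out. Over 7 arrays the first was -0.20 ± 0.31.

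Cx3cr1, the fractalkine receptor of monocytes and of some tissue macrophages, read 4.64, 4.51 and 5.61 in wild type, 5.27, 5.44 and 5.25 in Foxn1933/1089 and 5.54, 5.23 and 5.22 in Tbx1neo2/neo2. All 6 mutant arrays lay between the low wild-type arrays (replicates 1 and 2) and the high one (replicate 3). The differences from wild type were near each other, 0.40 ± 0.29 and 0.41 ± 0.29, with 95% intervals from -0.25 to 1.05 and from -0.24 to 1.06. They moved with the wild-type arrays: leaving out single arrays gave 0.20 to 0.74 and 0.21 to 0.75, the lower values without wild-type replicate 2 and the higher without replicate 3. Over 7 arrays they were 0.20 ± 0.35 and 0.27 ± 0.32. Its ligand gene Cx3cl1 was below the negative-control median on all 9 arrays.

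Mrc1 encodes the mannose receptor CD206, an endocytic lectin that lymphatic endothelium also makes. It read 7.86, 7.76 and 8.90 in wild type, 9.34, 9.65 and 8.32 in Foxn1933/1089 and 8.07, 8.07 and 8.90 in Tbx1neo2/neo2. Foxn1933/1089 replicates 1 and 2 were the 2 highest arrays, but replicate 3 fell within the wild-type range. The difference from wild type was 0.93 ± 0.43 in Foxn1933/1089 (95% interval -0.03 to 1.89), with an unadjusted p of 0.0572. In Tbx1neo2/neo2 it was 0.17 ± 0.43. Over 7 arrays the differences were 0.50 ± 0.48 and 0.01 ± 0.44, and leaving out single arrays gave 0.65 to 1.32 for Foxn1933/1089. The 2 mutants differed by 0.76 ± 0.43 (-0.21 to 1.72). Of 8 measured endothelial and lymphatic genes, 6 were higher in Foxn1933/1089 and 7 in Tbx1neo2/neo2, with 0 called (4 and 6 over 7 arrays). Their mean per array was 7.11 to 8.14 in wild type, 7.18 to 7.95 in Foxn1933/1089 and 7.49 to 7.70 in Tbx1neo2/neo2. The median differences of the 8 genes were 0.06 and 0.18, and -0.04 and 0.22 over 7 arrays. Prox1, which defines lymphatic endothelium, was the lowest of the 8 and unlike the rest, at -2.38 ± 1.09 and -2.0 ± 1.09 (not called). The part of endothelial cells in the Mrc1 values was not tested.

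Lyz2 encodes lysozyme, a bactericidal enzyme of macrophages, monocytes and granulocytes. It read 7.48, 6.08 and 6.53 in wild type, 6.35, 6.53 and 5.69 in Foxn1933/1089 and 6.16, 5.70 and 7.80 in Tbx1neo2/neo2. Tbx1neo2/neo2 replicate 3 and wild-type replicate 1 were the highest arrays, and the genotypes overlapped throughout. The differences from wild type were -0.50 ± 0.55 (95% interval -1.73 to 0.72) and -0.14 ± 0.55 (-1.37 to 1.09). Without wild-type replicate 1 they were -0.11 and 0.25, and over 7 arrays -0.28 ± 0.61 and 0.25 ± 0.55. The near copy Lyz1 ran from 3.88 to 4.76 and exceeded the median of the negative controls on 3 of 9 arrays.

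Granule genes of neutrophils were high on the same Tbx1neo2/neo2 array. Ngp, the neutrophilic granule protein, read 14.18 there and 4.81 to 11.05 on the other 8 arrays. Camp, the cathelicidin gene, read 10.71 against 4.00 to 7.10, and S100a9, a calcium-binding protein of neutrophils and monocytes, 10.30 against 4.85 to 7.89. Of 14 measured monocyte and granulocyte genes, 5 had their highest value on this array, where their mean was 7.47 against 4.98 to 6.82 elsewhere. Wild-type replicate 1, the other array high for Lyz2, had a list mean of 5.68. It was the highest array for 0 of the 14 genes and the lowest for 4. In this list 5 genes were higher in Foxn1933/1089 and 10 in Tbx1neo2/neo2, with 0 called (3 and 8 without wild-type replicate 1). The part of these cells in the Lyz2 values was not tested. The monocyte gene Ly6c2 gave the lowest unadjusted p of the list in both comparisons (-2.02 ± 0.63 and -1.79 ± 0.63). Wild-type replicate 2 was its highest array at 7.42. Ly6c2 exceeded the negative-control median on 4 of 9 arrays, and on no Foxn1933/1089 array.

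Pf4 encodes platelet factor 4, a chemokine of platelet granules that fetal macrophages also express. It read 11.23, 7.94 and 9.71 in wild type, 8.77, 9.15 and 8.81 in Foxn1933/1089 and 8.76, 10.56 and 9.03 in Tbx1neo2/neo2. The spread inside wild type (9.63 ± 1.65, SD, n = 3) was wider than any difference between genotypes. Those differences were -0.72 ± 0.74 (95% interval -2.39 to 0.94) in Foxn1933/1089 and -0.18 ± 0.74 (-1.84 to 1.49) in Tbx1neo2/neo2. Over 7 arrays they were -0.04 ± 0.67 and 0.63 ± 0.61.

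The 2 highest arrays for Pf4, wild-type replicate 1 and Tbx1neo2/neo2 replicate 2, were also the 2 highest for Ppbp, Itga2b, Treml1, Gp6 and Itgb3. Ppbp, a second platelet chemokine, read 8.88 and 7.94 there and 5.45 to 7.19 on the other 7 arrays. Itga2b, the platelet integrin subunit CD41, read 7.74 and 7.79 against 5.46 to 7.25. Gp6 lay below the negative-control median on all arrays. Gp9, Gp5, Tubb1, Clec1b and Selp also peaked on wild-type replicate 1, but Tbx1neo2/neo2 replicate 2 did not come next. Wild-type replicate 1 was the highest array for 9 of 10 measured megakaryocyte and platelet genes, whose mean there was 6.05 against 4.65 to 5.43 elsewhere. None of these 10 genes was higher in either mutant (1 of 10 in Tbx1neo2/neo2 with each array centred on its median), with medians of -0.53 and -0.28 and 0 called, and without wild-type replicate 1 the medians were -0.22 and -0.03, with 2 and 4 of 10 higher. Whether platelets or macrophages carried the Pf4 signal was not tested. Wild-type replicate 2 was the lowest array for Pf4, at 7.94.

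**Figure D2:**
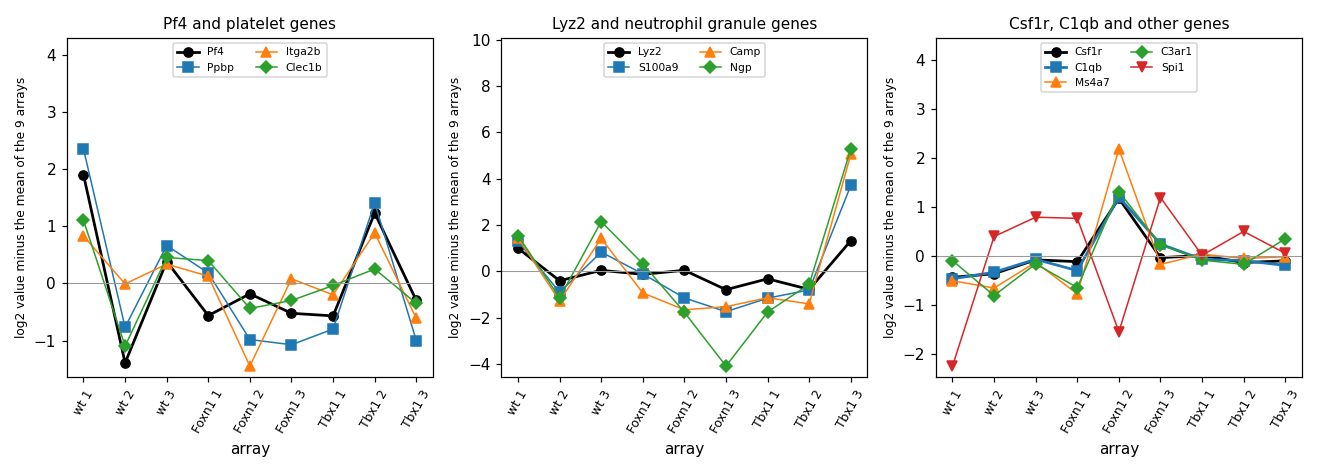
The vertical axis is the log2 value minus the gene's mean over the 9 arrays, which are given along the horizontal axis; each line is 1 gene, with members in thick lines. Pf4 peaks with Ppbp and Itga2b on wild-type replicate 1 and Tbx1neo2/neo2 replicate 2 (left), Lyz2 peaks with the granule genes on Tbx1neo2/neo2 replicate 3 (middle), and Csf1r and C1qb peak on Foxn1933/1089 replicate 2 (10.20 and 6.87), where Spi1 is low (right).

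Set against wild type as a group, the 9 genes had a median difference of 0.58 in Foxn1933/1089, with 6 higher and 3 lower (7 and 2 after quantile normalization or median centring, under which Adgre1 changed sign). The median over all clusters was 0.02. It was 0.26 without Foxn1933/1089 replicate 2, and 0.17 when wild-type replicate 1 was left out as well. In Tbx1neo2/neo2 the median was 0.17, again with 6 higher and 3 lower, beside 0.01 over all clusters. Leaving out wild-type replicate 1 gave 0.25 with 8 of 9 higher, and leaving out wild-type replicate 3 gave 0.32. A fixed block for the dates in the sample titles gave 0.043. Between the mutants the median was 0.15 (6 higher in Foxn1933/1089), and -0.035 without Foxn1933/1089 replicate 2. The genes below wild type were Adgre1, Lyz2 and Pf4 in both comparisons, which share the wild-type arrays.

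**Figure D3:**
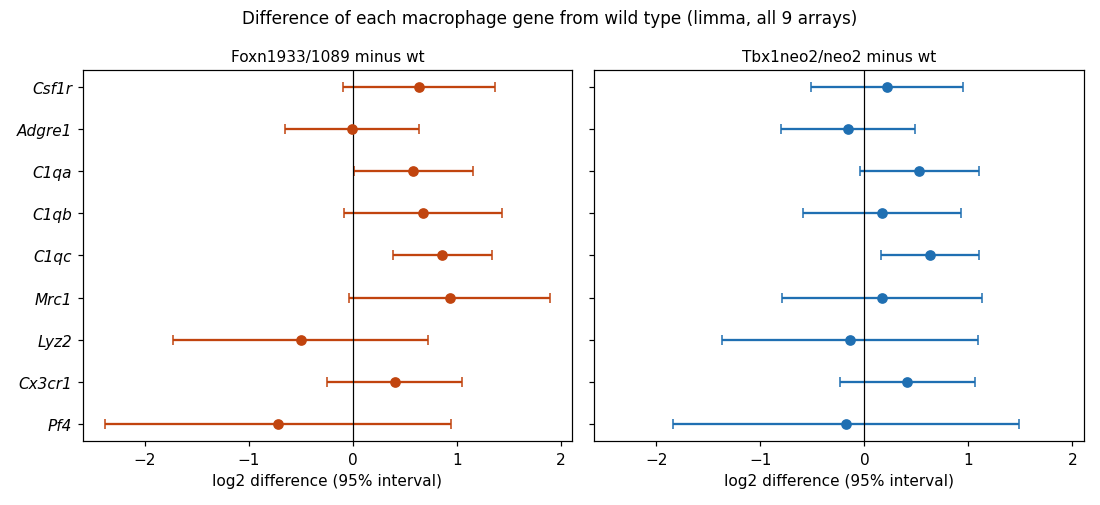
Points are log2 differences of each gene from wild type in Foxn1933/1089 (left) and Tbx1neo2/neo2 (right), with 95% intervals from limma over all 9 arrays; the vertical line is no difference. The C1qc interval lies above 0 in both panels (0.39 to 1.33 and 0.16 to 1.10), and those of Pf4 and Lyz2 are the widest.

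Dates in the titles of the samples form 3 codes, named A, B and C in this text, and what was done on those dates is not stated. Within code A, which holds 1 array of each genotype, the median difference of the 9 genes was 0.33 for Foxn1933/1089 minus wild type (7 of 9 higher) and 0.00 for Tbx1neo2/neo2 minus wild type (4 of 9 higher). Within code B, the 2 Foxn1933/1089 arrays differed from the wild-type array by a median of 0.75 (7 of 9 higher). Within code C, the 2 Tbx1neo2/neo2 arrays differed from the wild-type array by 0.32 (6 of 9 higher). C1qc was higher in the mutants within each code, by 0.85 (A) and 1.02 (B) in Foxn1933/1089 and by 0.70 (A) and 0.44 (C) in Tbx1neo2/neo2. Each of these differences is against a single wild-type array. The wild-type array of code C is replicate 1 and the Foxn1933/1089 array of code A is replicate 2, the 2 arrays that stood apart. Foxn1933/1089 minus Tbx1neo2/neo2 could be read within code A alone, with a median of 0.37 and 8 of 9 higher, where the Foxn1933/1089 array is replicate 2.

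The 2 arrays poor in thymic genes differed from each other in the macrophage genes. The mean of the 9 genes was 7.0 on wild-type replicate 1 and 7.56 on Foxn1933/1089 replicate 2, against 6.38 to 7.15 on the other 7 arrays. Foxn1933/1089 replicate 2 was the highest array for 6 of 9 genes: Csf1r, Adgre1, C1qa, C1qb, C1qc and Mrc1. It exceeded the mean of the other 7 arrays by 1.29 for Csf1r, 1.32 for C1qb and 1.17 for Mrc1, and by 0.37 for C1qa. On wild-type replicate 1, by contrast, Csf1r, C1qa, C1qb, C1qc, Mrc1 and Cx3cr1 lay below the mean of the 7, with differences from -0.32 (Csf1r) to -0.62 (Mrc1). There Pf4 exceeded that mean by 2.15, Lyz2 by 1.15 and Adgre1 by 0.23. The list means on this array were also the lowest of the 9 for transcription factors (4.93 against 5.62 to 6.03), phagocyte core genes (8.14 against 8.40 to 8.76) and scavenging genes (5.30 against 5.37 to 5.91). Wild-type replicate 2, rich in thymic genes, was the lowest array for 5 of 9 genes.

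Other phagocyte genes divided on Foxn1933/1089 replicate 2. Genes picked after their values were seen included Ms4a7, a membrane protein of macrophages, at 10.94 against 7.99 to 8.80 elsewhere, and C3ar1, the receptor for complement C3a, at 7.48 against 5.37 to 6.52. Others, likewise picked after their values were seen, were low on both thymus-poor arrays. Tyrobp, a signalling adaptor, read 7.04 on wild-type replicate 1 and 7.92 on Foxn1933/1089 replicate 2, against 8.53 to 10.18 on the others. Laptm5, a lysosomal membrane protein of leukocytes, read 10.77 and 11.23 against 13.22 to 14.54.

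**Figure D4:**
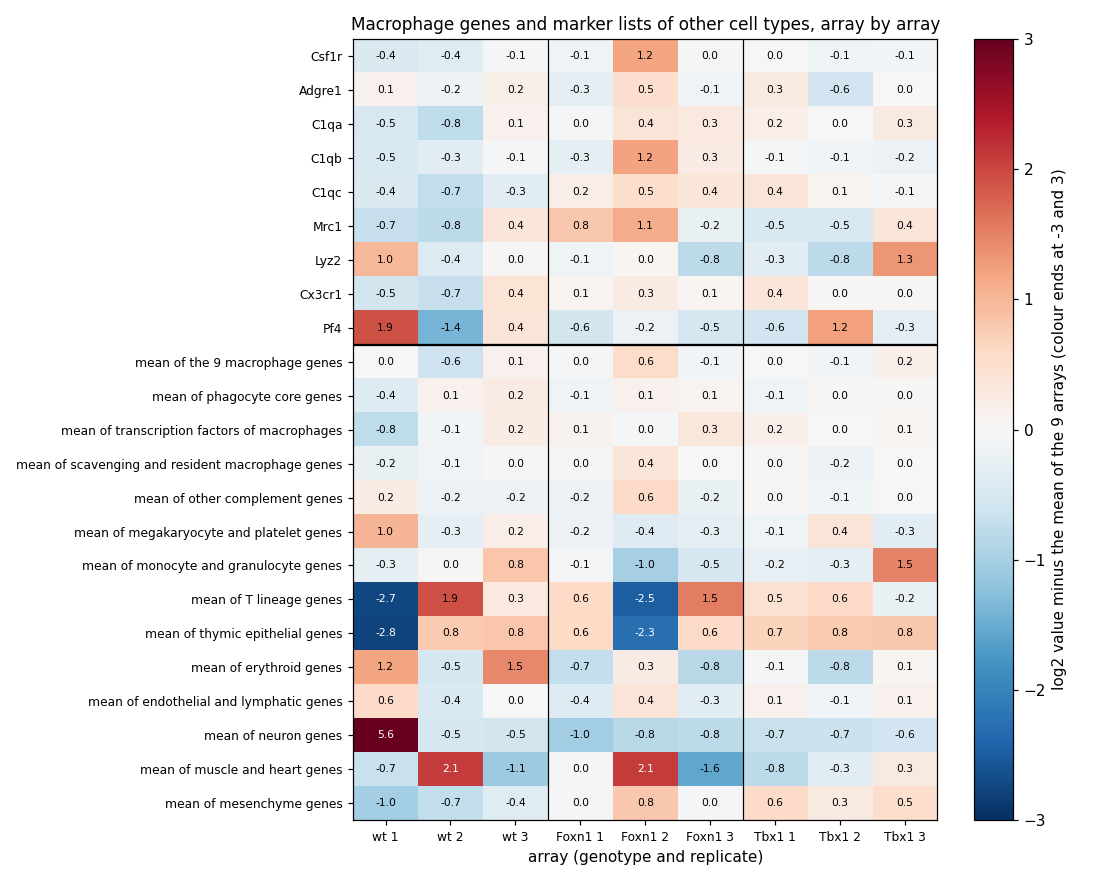
Rows are the 9 macrophage genes and the means of lists of genes, columns are the 9 arrays, and the colour and figure in each cell give the log2 value minus the row's mean over the arrays, with colour ending at -3 and 3. Wild-type replicate 1 and Foxn1933/1089 replicate 2 are low for the T lineage and thymic epithelial rows, while 6 of the 9 macrophage genes peak on Foxn1933/1089 replicate 2. On wild-type replicate 1 the mean of the 9 genes (7.0) includes Pf4 at 11.23 and Lyz2 at 7.48, and 6 of the 9 lie below the mean of the other 7 arrays.

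The wider macrophage lists gave 0 called genes in all comparisons. Of 24 measured scavenging and resident macrophage genes, 18 were higher in Foxn1933/1089 than in wild type (median 0.10) and 12 in Tbx1neo2/neo2 (median -0.01, and 0.05 with each array centred on its median). An unadjusted p under 0.05 (limma) was found for 4 and 1 of the 24, against 4.04% and 3.79% of all clusters. The 1 was Vsig4, which was also among the 4. Over 7 arrays 14 and 12 were higher. Axl, a receptor for dying cells that mesenchyme also makes, read 11.67, 11.11 and 11.75 in wild type, 12.15, 13.46 and 12.13 in Foxn1933/1089 and 12.29, 12.32 and 12.23 in Tbx1neo2/neo2. All 6 mutant arrays were above the wild-type arrays, by 1.07 ± 0.36 and 0.77 ± 0.36 (limma, adjusted p = 1.00 for both). Arrays wholly above wild type were found for 4.86% and 5.18% of all clusters. Cd36, a scavenger receptor for lipids, differed by 1.04 ± 0.33 and -0.29 ± 0.33. Hmox1, the haem-degrading enzyme, was lower on every mutant array (differences of -0.95 ± 0.36 and -0.81 ± 0.36) and likewise did not pass. Arrays wholly below wild type were found for 3.43% and 4.27% of all clusters. In 8 of the 24 genes all arrays lay below the negative-control median, among them Timd4, Cd163, Vsig4, Marco and Siglec1.

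Of 22 measured phagocyte core genes, 11 were higher in Foxn1933/1089 (median 0.01) and 9 in Tbx1neo2/neo2 (median -0.15). Over 7 arrays 4 and 9 were higher, with medians of -0.14 and -0.23. Apoe, the lipid carrier that resident macrophages secrete, read 9.62, 8.96 and 9.14 in wild type, 9.76, 10.53 and 9.95 in Foxn1933/1089 and 9.92, 10.22 and 10.21 in Tbx1neo2/neo2. Every mutant array was above every wild-type array, by 0.84 ± 0.27 and 0.88 ± 0.27 (limma, adjusted p = 1.00 for both). The same held for 4.86% and 5.18% of all clusters in the 2 comparisons, and Apoe was named for its low p. Itgb2, the common subunit of leukocyte integrins, differed by -1.15 ± 0.45 in Foxn1933/1089, where every array lay below the negative-control median for this gene. Lgmn, a lysosomal protease, differed by -1.0 ± 0.35 in Tbx1neo2/neo2. Of 9 other complement genes, 5 were higher in each mutant (medians 0.09 and 0.17). Without Foxn1933/1089 replicate 2 the first was -0.15 with 3 of 9 higher, and over 7 arrays the medians were -0.07 and 0.01, with 3 and 5 higher. C2, the next protease of the classical pathway after C1, differed by 1.19 ± 0.26 in Foxn1933/1089 with all arrays below the negative-control median.

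Among cells that share genes with macrophages, 1 of 9 dendritic cell genes was higher in Foxn1933/1089 and 5 in Tbx1neo2/neo2, and 5 of 7 and 4 of 7 mast cell genes, with 0 called (3 of 7 mast cell genes in Foxn1933/1089 without wild-type replicate 1). Mesenchyme genes differed in the same direction as C1qc and Axl: all 5 measured were higher in both mutants (medians 0.98 and 1.04, 0 called), with list means of 12.49 to 13.16 in wild type, 13.49 to 14.34 in Foxn1933/1089 and 13.80 to 14.09 in Tbx1neo2/neo2, which do not overlap. Foxn1933/1089 replicate 2 was the highest array for 4 of the 5, and without it the Foxn1933/1089 median was 0.56. Over 7 arrays the medians were 0.57 (4 of 5 higher) and 0.91 (5 of 5). Dcn, the collagen-binding proteoglycan decorin, differed by 1.53 ± 0.27 and 1.56 ± 0.27. Of 7 erythroid genes, 2 were higher in each mutant (medians -1.73 and -1.34, 0 called), with list means of 10.32 to 12.30, 10.01 to 11.11 and 10.06 to 10.91. Over 7 arrays 1 and 2 were higher, with medians of -1.63 and -0.81. T lineage genes were higher in 4 of 7 and 5 of 7, thymic epithelial genes in 4 of 8 and 7 of 8, neuron genes in 0 of 5 and 0 of 5, and muscle and heart genes in 3 of 6 and 2 of 6, with 0 called in each. Without wild-type replicate 1 the T lineage medians were -0.89 and -0.86 (0 of 7 higher in both). The thymic epithelial medians were then -1.21 and -0.24 (2 of 8 in both). Leaving out Foxn1933/1089 replicate 2 instead gave Foxn1933/1089 medians of 1.32 for T lineage (6 of 7 higher) and 0.69 for thymic epithelial genes (6 of 8). With both arrays left out these 2 medians were -0.06 and -0.18. Over 7 arrays 2 and 0 T lineage, 2 and 2 thymic epithelial, 0 and 2 neuron, and 2 and 1 muscle and heart genes were higher. The part of these tissues in the macrophage values was not tested.

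Likeness between genes was measured as the root mean square distance of their log2 values over the 9 arrays, each gene centred on its mean, so that 0 means the same course. Among the 36 pairs of members, Csf1r and C1qb were closest (0.119), then C1qa and Cx3cr1 (0.171) and C1qa and C1qc (0.218). Over the 7 arrays without the 2 that stood apart, Csf1r and C1qb (0.134) and C1qa and Cx3cr1 (0.184) were again the closest pairs. The most distant pair was Mrc1 and Pf4 over 9 arrays (1.25), where the 8 widest distances all involved Pf4, and Lyz2 and Pf4 over 7 arrays (1.07). These distances grow with the spread of a gene over arrays that all genes share, and they are a description.

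When genes were ranked by distance from the mean course of the 3 C1q chains, with 19496 genes other than the members as the scale, Csf1r came at rank 107 and Cx3cr1 at rank 257. Adgre1 came at rank 2969 and Mrc1 at rank 10137, and Lyz2 came at rank 18120 and Pf4 at rank 18757. Over 7 arrays the ranks, in the same order of genes, were 174, 849, 7133, 16471, 18781 and 18738. The genes outside the members that lay closest to the C1q course were Sox30 (0.130), B9d1 (0.141), Rcn1 (0.144), Nxnl2, Gal3st2c, Mospd2, Copz2, Gm9881, Rfxank and Alg11. Closest to the mean course of the 9 members were Bri3 (0.074), Fndc4 (0.075), Dlg5 (0.099), Cwc22, Magea1, Arrdc3, Galnt10, Afmid, Cplane2 and Ptpra. Over 7 arrays, Bri3, Fndc4, Dlg5 and Ptpra were again among the closest 10, with Sec23ip (0.052) and Lama4 (0.068) first, and the closest to the C1q course were Ttll1 (0.062) and Ccnd2 (0.079). No gene of the macrophage lists was among the closest 10 in any of these 4 rankings.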

How the data were processed

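Deposited log2 values of 28846 features on 9 arrays were used as given. Per the labels' protocols, RNA was amplified, made into cDNA and labelled with Affymetrix kits. No source used here states the software, the normalization or the genome build. After 6640 control features were left out, 22206 transcript clusters were tested, of which 19572 carry 1 symbol. The members and gene lists were chosen with earlier results of these data known.

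With limma 3.58.1 (R 4.3.3; lmFit and eBayes, two-sided), 1 model with a mean for each genotype was fitted over the 9 arrays, with Benjamini-Hochberg adjustment over all clusters and a threshold of 0.05. It was also run on simulated data with independent noise and added differences larger than those of the members. That simulation held no arrays that stood apart, so it does not bear on the members' differences. Errors are SDs of 3 arrays or SEs of the model. Named genes were the members, markers of other cells that move with a member, and the 10 genes of nearest course. From each list they were drawn from the highest gene, called genes and up to 3 of lowest p. Not all of these are described: Grn and Cfp, the highest phagocyte core and other complement genes, are not. Ms4a7, C3ar1, Tyrobp, Laptm5, Il34, Cx3cl1, further platelet genes and the genes below the negative-control median were named after their values were seen. Motifs were sought in RefSeq start regions. Alternatives were other normalizations, filters on low values, moderation, array weights, date code as a block and arrays left out. The number of arrays limits the precision. Figures used matplotlib 3.10.9.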

Additional observations from a re-analysis of the deposited data

How the results depend on the processing

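The counts of genes called stayed at 0 of 9 in all 3 comparisons under every alternative that was run, including an adjusted p threshold of 0.1. The median difference of the 9 genes moved beyond the spread of their mean between replicates in 3 fits. For Foxn1933/1089 minus wild type it ran from 0.26 to 0.74 when single arrays were left out, and was 0.17 without wild-type replicate 1 and Foxn1933/1089 replicate 2 together. For Foxn1933/1089 minus Tbx1neo2/neo2 it was 0.15 with all arrays, 0.49 with date code as a fixed block, and -0.035 to 0.33 with single arrays left out, negative without Foxn1933/1089 replicate 2. C1qc, C1qa, C1qb, Csf1r and Cx3cr1 kept their direction against wild type in all fits.

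Other genes changed sign, none of them called in any fit. Adgre1 in Foxn1933/1089 became 0.042 after quantile normalization, 0.043 after median centring, 0.069 with date code as a fixed block and 0.00035 as a random block. With date code as a fixed block Pf4 in Foxn1933/1089 was 0.12 and Mrc1 in Tbx1neo2/neo2 was -0.012. In Tbx1neo2/neo2, Lyz2 was 0.19 and Pf4 0.46 with array weights, and 0.25 and 0.63 without both arrays that stood apart. With single arrays left out, Adgre1 ran from -0.24 to 0.15 and Pf4 from -1.57 to 0.081 in Foxn1933/1089. In Tbx1neo2/neo2, Adgre1 ran from -0.34 to 0.086, Mrc1 from -0.10 to 0.53, Lyz2 from -0.76 to 0.29 and Pf4 from -1.02 to 0.63. Leaving out wild-type replicate 1 turned Pf4 in both mutants and Lyz2 in Tbx1neo2/neo2, and Tbx1neo2/neo2 arrays (replicates 1 and 3 for Pf4, 1 and 2 for Lyz2) did so too. The cause was not tested. A mean over several clusters of a gene was not run, because each member has 1. Of the 9 genes, 5 never exceeded the 95th percentile of the negative controls, which limits what their differences can show.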

Other observations

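Set beside 163 genes of the marker lists, a comparison added after the data were seen, single members lay closest to different kinds of gene. C1qc was nearest to Vsig4 (root mean square distance 0.191 over the 9 arrays), the complement receptor of resident macrophages, which was itself below the negative-control median on every array. C1qb was nearest to Ctss (0.239), a lysosomal cathepsin of antigen-presenting cells, and Mrc1 to Trem2 (0.257), a lipid receptor of macrophages. Csf1r was nearest to Cebpb (0.246), Cx3cr1 to Flt3 (0.194), C1qa to F13a1 (0.263) and Adgre1 to Cd5l (0.204). Lyz2 was nearest to Mertk (0.415). Pf4 was nearest to the neuron gene Stmn2 (0.535), which like Pf4 was highest on wild-type replicate 1, and next to Ppbp (0.553). Of these, Cebpb, Flt3 and Cd5l also lay below the negative-control medians on all arrays.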
